A study of Mus musculus with 35 samples.

Results

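The 7 genes described here are the pericyte genes *Kcnj8* and *Abcc9*, which encode an ATP-sensitive potassium (KATP) channel, with 5 companion genes, *Higd1b*, *Ndufa4l2*, *Atp13a5*, *Kcne4* and *Kcng1*. They are 7 of the 53465 genes in the table of bulk libraries. The members were chosen by their levels in mural cells of these same samples, so the values that set mural cells apart from the other populations are a description, and nothing is read from how many members passed the thresholds of a fit there. Comparisons among the other 3 populations did not enter that choice and were tested.

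A KATP channel is built from pore subunits of the inward rectifier family and regulatory subunits of the ABC transporter family, and it opens when the ATP level of the cell falls, which draws the membrane potential towards rest. In vascular mural cells, the pericytes of capillaries and the smooth muscle cells of larger vessels, the usual pore is Kir6.1 (*Kcnj8*) and the usual regulatory subunit is SUR2 (*Abcc9*), and opening of the channel relaxes the vessel. Neurons and pancreatic beta cells mostly use the paralogues Kir6.2 (*Kcnj11*) and SUR1 (*Abcc8*).

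Brains of E14.5 mouse embryos were dissociated and sorted by FACS. For bulk RNA-seq, 12 libraries were made from 4 populations, neural, mural, endothelial and microglial cells, of 3 brains. The numbers in the library names were read as those of the brains (N, Mu, Ec or Mi for the population, as in N-340, Mu-343 and Ec-346). For single cells (mCEL-Seq2, which counts transcripts by random identifiers at their 3′ end), 11 libraries cover plates 1 to 3 with a recorded sort gate for each well, and 12 libraries cover plates 4 to 6, labelled *Mof* knockout, with no gate recorded. For bulk, mural cells were sorted as PDGFRβ high and negative for endothelial and hematopoietic surface markers. Endothelial cells were sorted by PECAM1 and CD102, microglia by CD45 and CD11b, and neural cells as negative for all of these. Recorded gates of the wells differed in part. Mural wells were PECAM1 low, and the microglial gate named another hematopoietic marker beside CD45 and not CD11b. The bulk brains and the wells with a recorded gate are wild type by the description of the design, although the labels of those plates carry no genotype. The allele, the Cre driver and the number of embryos behind the knockout plates are not given in the sources used here. Neural bulk libraries were made with another library kit than the other 3 populations, so that for neural cells kit and population cannot be told apart.

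Bulk libraries held 17638358 to 98414914 reads on genes, and 1 read was worth 0.264 to 1.77 normalized counts. The sums of 8 mural markers were 641104 to 694773 normalized counts in mural libraries, 7583 to 12469 in endothelial, 3462 to 3698 in neural and 331 to 471 in microglial libraries. In mural libraries the 8 endothelial markers summed to 3310 to 5011, against 185254 to 219652 in endothelial libraries. The 8 neural markers summed to 33728 to 62163 in mural libraries, against 131250 to 141538 in neural libraries. Of these, *Sox11* was at 13511 to 23250 and *Tubb3* at 928 to 1373 in mural libraries, against 37294 to 39890 and 30178 to 34478 in neural libraries. *Dcx* was at 247 to 814 normalized counts in mural libraries, against 31489 to 35892 in neural libraries, whereas *Fabp7* was higher in mural (18397 to 34842) than in neural libraries (7006 to 8042). In bulk samples, fewer cells of a type and less RNA per cell cannot be told apart. The p-values below measure the spread among 3 brains per population. All 192 well barcodes occur in each of the 23 single-cell libraries, so that a barcode names a cell only together with its library.

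*Kcnj8* and *Abcc9* are neighbours. In GRCm38 (mm10) with the GENCODE vM21 annotation, *Kcnj8* (ENSMUSG00000030247) lies on the minus strand at chr6:142564837-142571614 and *Abcc9* (ENSMUSG00000030249) on the same strand at chr6:142587862-142702315, with 16247 bases and 0 annotated genes between them. The paralogues *Kcnj11* and *Abcc8* are arranged alike on chromosome 7, with 3758 bases and 0 genes between them. The companions lie elsewhere: *Higd1b* at chr11:102835849-102838040, *Ndufa4l2* at chr10:127514967-127517154, *Kcne4* at chr1:78816758-78820028, *Atp13a5* at chr16:29231851-29378732 and *Kcng1* at chr2:168260117-168281736. *Abcc9*, *Ndufa4l2* and *Kcne4* each overlap a gene of the opposite strand (*5330439B14Rik*, *Shmt2* and *Gm29536*), and *Atp13a5* overlaps *Gm15752* on its own strand. Whether the bulk counting used the strand is not given in the sources used here, so reads in those stretches cannot be assigned with certainty.

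Promoters of 3 members are printed because the channel genes are neighbours that were both high in mural cells, and *Kcne4* carries a site of another kind. They come from RefSeq on GRCm38.p6 and run from 250 bases before to 50 bases after the start of the gene, 5′ to 3′ on the strand of the gene, and 4 of the 7 members were in that table. Searched on both strands were TATAAA, bound by the TATA-binding protein, ACGTG (the core of the hypoxia response element, which overlaps the E-box CACGTG), then TGGGAA (the core bound by RBPJ, the nuclear effector of Notch) and TGTTTAC (a forkhead site). Capitals mark the matches.
Kcnj8, chr6:142571565-142571864, minus strand: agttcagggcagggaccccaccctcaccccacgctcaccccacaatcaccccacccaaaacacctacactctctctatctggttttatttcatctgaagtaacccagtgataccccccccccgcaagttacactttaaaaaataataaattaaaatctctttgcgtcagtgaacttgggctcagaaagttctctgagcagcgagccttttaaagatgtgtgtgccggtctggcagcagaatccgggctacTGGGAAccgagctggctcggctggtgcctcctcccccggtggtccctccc
Abcc9, chr6:142702225-142702524, minus strand: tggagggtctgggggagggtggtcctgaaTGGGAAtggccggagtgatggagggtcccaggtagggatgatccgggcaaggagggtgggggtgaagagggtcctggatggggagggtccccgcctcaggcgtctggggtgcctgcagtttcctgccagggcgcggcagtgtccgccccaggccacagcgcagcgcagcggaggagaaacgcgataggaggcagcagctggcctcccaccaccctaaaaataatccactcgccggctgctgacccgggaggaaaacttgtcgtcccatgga
Kcne4, chr1:78816661-78816960, plus strand: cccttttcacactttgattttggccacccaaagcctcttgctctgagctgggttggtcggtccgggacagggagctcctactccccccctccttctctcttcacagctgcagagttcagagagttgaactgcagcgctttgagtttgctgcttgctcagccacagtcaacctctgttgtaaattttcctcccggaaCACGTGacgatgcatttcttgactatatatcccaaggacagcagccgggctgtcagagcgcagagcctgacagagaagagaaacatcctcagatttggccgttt

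TGGGAA occurred once in each of the *Kcnj8* and *Abcc9* promoters, just after the start of *Kcnj8* and from 221 bases before the start of *Abcc9*. Of all 32851 promoters of this length, 25.6% hold TGGGAA. In the *Kcne4* promoter the capitals mark CACGTG, which holds ACGTG on both strands, and 19.6% of all promoters hold ACGTG. The motif TATAAA (13.6% of all promoters) and TGTTTAC (3.65%) were not in the window of any of the 4 members, and that of *Atp13a5* (chr16:29378683-29378982) had none of the 4 motifs. The GC content was 53.3% for *Kcnj8*, 65.7% for *Abcc9* and 52.7% for *Kcne4*, against a median of 52.7% over all promoters. A match is a description of the letters only.

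In the bulk libraries the channel genes and 4 of the companions were highest in mural cells, and *Kcng1* was not. *Kcnj8*, *Abcc9*, *Higd1b*, *Ndufa4l2*, *Atp13a5* and *Kcne4* were each higher in every mural library than in every other library, which holds for 7.25% of the 19765 genes tested. *Kcng1* was highest in neural libraries, which were made with another kit.

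The pore gene *Kcnj8* was at 41847, 38245 and 43207 normalized counts in the mural libraries Mu-340, Mu-343 and Mu-346, an order of brains kept for every population below. It was at 0, 1.42 and 451 in endothelial, 10.7, 1.19 and 13.8 in microglial, and 2.67, 3.88 and 3.96 in neural libraries. The lowest mural library was 84.8-fold above the highest library of any other population, the endothelial library Ec-346, and the remaining 8 libraries stayed at or below 13.8.

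The regulatory gene *Abcc9* was at 39438, 38931 and 42589 normalized counts in mural libraries. It was at 1.77, 253 and 55.8 in endothelial, 9.51, 0 and 10.1 in microglial, and 9.35, 12.2 and 18.2 in neural libraries. Its lowest mural value was 154-fold above its highest value elsewhere, here the endothelial library Ec-343, so the channel genes had their highest endothelial values in different brains.

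*Higd1b*, of a family of small inner mitochondrial membrane proteins named for their induction by hypoxia, was at 6744, 11415 and 10144 normalized counts in mural libraries. Elsewhere it was at 137 in Ec-346, at 2.38 in Mi-340, and at 0 in the remaining 7 libraries. *Ndufa4l2*, a paralogue of the respiratory chain protein *Ndufa4* and a known target of hypoxia-inducible factor, was at 26927, 27061 and 26986 in mural libraries. Of the 7 members it varied least between brains in mural libraries, and in endothelial libraries it was at 308, 311 and 207. It was at 8.32, 1.19 and 25.2 in microglial and 13.4, 8.86 and 13.5 in neural libraries.

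*Atp13a5*, a P5-type transport ATPase of intracellular membranes, was at 1379, 2792 and 3217 normalized counts in mural libraries. It was at 0 in all endothelial and microglial libraries and at 0, 3.88 and 1.32 in neural libraries. *Kcne4*, a single-pass accessory subunit that restrains voltage-gated potassium channels, was at 4011, 3609 and 3584 in mural libraries. It was likewise at 0 in all endothelial and microglial libraries and at 1.34, 1.66 and 0 in neural libraries. These were the members with the least signal outside mural cells.

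*Kcng1*, an electrically silent Kv subunit that forms channels only together with other Kv subunits, was at 322, 44.5 and 154 normalized counts in mural libraries. In neural libraries it was at 338, 353 and 383, above every mural library, and it was at 0 in all endothelial libraries and at 0, 0 and 13.8 in microglial libraries. The mural values rest on 738, 39 and 164 reads and spread 7.24-fold between brains, and the neural libraries differ from them in kit.

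**Figure D1:**
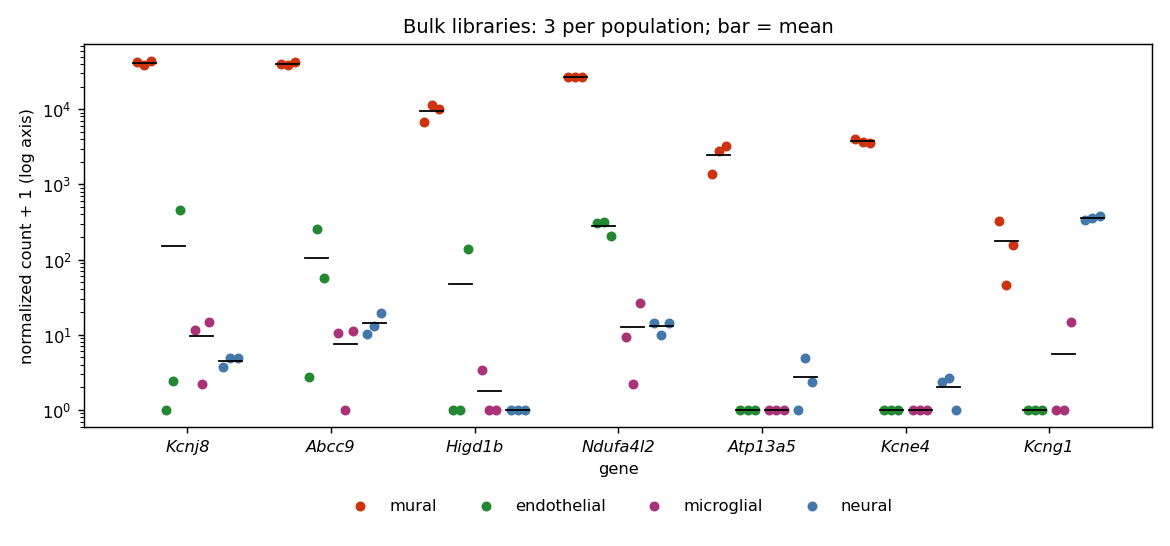
Normalized counts of the 7 members (log10 scale of the value + 1) in each of the 12 bulk libraries, by population; every point is 1 library and bars are means. The mural points of 6 members lie above all others, while the neural points of *Kcng1* (338 to 383) lie above its mural points (44.5 to 322).

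The members differed in how evenly the 3 brains expressed them. Between the highest and the lowest mural library the ratio was 1.005 for *Ndufa4l2*, 1.09 for *Abcc9*, 1.12 for *Kcne4* and 1.13 for *Kcnj8*, but 1.69 for *Higd1b* and 2.33 for *Atp13a5*. *Higd1b* and *Atp13a5* were both lowest in Mu-340. As a percentage of the mean, the SD ran from 0.248% for *Ndufa4l2* and 4.92% for *Abcc9* to 39.1% for *Atp13a5* and 80.6% for *Kcng1*.

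Levels were compared between genes only per kilobase of exon. On that scale the mean mural levels of normalized counts per kilobase were 24650 for *Ndufa4l2*, 16130 ± 1006 (SD, n = 3) for *Kcnj8*, 11138 ± 2851 for *Higd1b*, 4815 ± 237 for *Abcc9*, 1406 for *Kcne4*, 528 for *Atp13a5* and 38.5 for *Kcng1*. Among 25823 genes with a value in mural libraries, *Ndufa4l2* ranked 29, *Kcnj8* 49, *Higd1b* 68 and *Abcc9* 212. *Kcne4* ranked 1017, *Atp13a5* 2766 and *Kcng1* 11762. For orientation, *Rgs5*, a regulator of G-protein signalling and a classical pericyte marker, ranked 8.

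The channel genes kept a fixed proportion in mural cells. Per kilobase, *Kcnj8* was 3.35-fold ± 0.130 (SD, n = 3) above *Abcc9*, between 3.23 and 3.49 in the individual brains. Their transcripts are of unequal length (2548 and 8373 bases of exon), so the near-equal normalized counts correspond to unequal levels per kilobase. The full-length protocol of the mural libraries does not cover all transcripts evenly, so a ratio between 2 genes holds for these libraries only.

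In bulk the genes of the paralogous channel were highest in neural cells. *Kcnj11* was at 507, 494 and 640 normalized counts in neural and 106, 83.8 and 99.5 in endothelial libraries. It was at 0 to 13.1 in mural and 0 to 1.19 in microglial libraries. *Abcc8* was at 852, 821 and 1083 in neural libraries, and its values were 111, 4.57 and 86.4 in mural, 0 to 67.3 in endothelial and 0 to 1.26 in microglial libraries. Every neural library lay above every mural library for both genes, as it did for 38.7% of the 19765 genes tested, between libraries of different kits. In single wells both genes were at or near the limit of detection. *Abcc8* was found in 6 of 123 neural-gate wells (4.88%) and 10 of 210 mural-gate wells (4.76%), at 2.22, 14.2 and 21.9 CPM on plates 1 to 3 in the neural gate and 9.50, 9.45 and 0 in the mural gate. *Kcnj11* was found in 0 wells of either gate, so that no difference was detectable at this depth. In neural cells the ratio of *Abcc8* to *Kcnj11* per kilobase was 0.762 ± 0.00685 (SD, n = 3). The mean neural level of *Kcnj11* was 149 normalized counts per kilobase, against 16130 for *Kcnj8* in mural cells, in libraries of different kits.

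**Figure D2:**
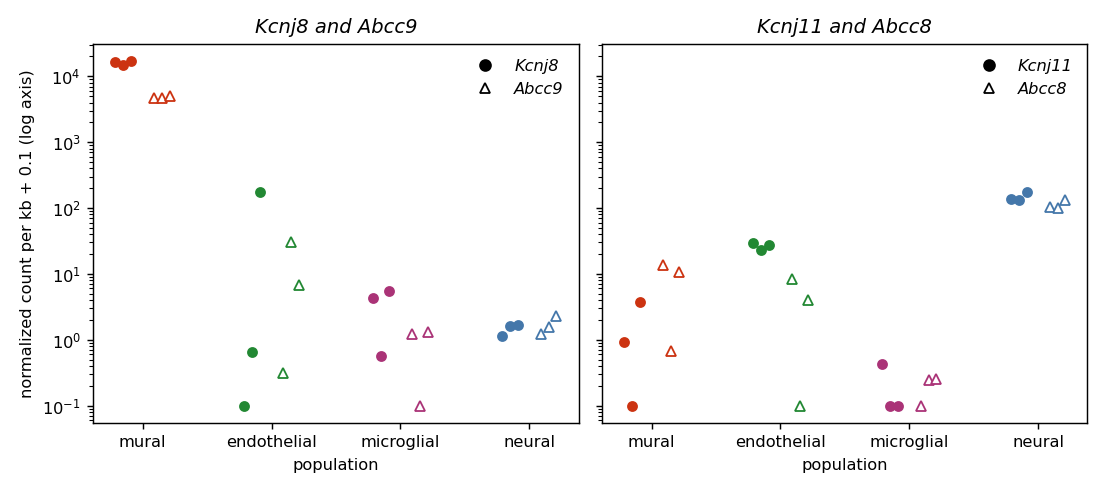
Normalized counts per kilobase of exon (log10 scale, with a small constant added) of the channel pairs *Kcnj8* with *Abcc9* and *Kcnj11* with *Abcc8* in each bulk library. *Kcnj8* and *Abcc9* (mural means 16130 and 4815) stand apart in mural cells, and *Kcnj11* and *Abcc8* (neural means 149 and 114) are highest in neural cells.

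On the log2(normalized count + 1) scale the mural level exceeded the mean of the other 3 populations by 12.53 (SE 1.48) for *Kcnj8*, 12.18 (SE 1.28) for *Higd1b*, 11.58 (SE 1.16) for *Abcc9*, 11.57 (SE 0.44) for *Kcne4*, 10.79 (SE 0.53) for *Atp13a5*, 9.80 (SE 0.58) for *Ndufa4l2* and 3.78 (SE 0.86) for *Kcng1*. The median difference was 11.57 for the members and -0.10 for all genes. The thresholds used for all genes in limma (over 10-fold, adjusted p under 0.05) were passed as higher by 4.99% of the 19765 genes tested. The choice of the members fixed that all 7 lay among them, so this count is no test. *Kcng1* lay among them although it was lower in mural than in neural cells, because the contrast averages 3 populations on a log scale and 2 of them were near 0. Fitted differences of genes at 0 depend on the added 1 and are no measure of a fold.

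The comparisons without mural cells asked whether the low levels elsewhere differ. Between endothelial cells and microglia, which share a library kit, 15.3% of all genes were higher and 17.0% lower in endothelial cells. All 7 members entered the fit through their mural or neural libraries. *Atp13a5* and *Kcne4* were at 0 in all 6 of these libraries and *Kcng1* in 5 of 6, so a count of calls over the 7 is not set against these shares. *Ndufa4l2* was higher in endothelial cells by 5.07 on the log2 scale (SE 0.72, limma adjusted p = 0.000237). *Abcc9* differed by 2.81 (SE 1.42, limma adjusted p = 0.162) and *Kcnj8* by 0.51 (SE 1.81, limma adjusted p = 0.876), and neither passed. For both genes the endothelial and microglial values overlapped. *Abcc9* passed without the brain of Ec-340, with a difference of 5.17, and in edgeR on the recovered reads, with 3.99.

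Against neural cells, *Ndufa4l2* was again higher in endothelial cells, by 4.42 (SE 0.72, limma adjusted p = 0.000351), and *Kcng1* was lower by 8.49 on the log2 scale (SE 1.06, limma adjusted p = 5.43e-05). edgeR on the recovered reads called *Kcnj8*, *Abcc9* and *Higd1b* higher in endothelial cells too, with log2 differences of 5.28, 2.83 and 8.83. The endothelial values of *Kcnj8* (0, 1 and 299 reads) and *Higd1b* (0, 0 and 91 reads) rest on Ec-346, and in limma without that brain the differences were -1.44 and 0. In limma 27.1% of all genes were higher and 30.6% lower in endothelial than in neural cells. In microglia against neural cells, where 29.3% of all genes were higher and 30.4% lower, *Kcng1* was lower, with a log2 difference of -7.19 (SE 1.06, limma adjusted p = 0.000159), and no other member passed in limma. *Atp13a5*, *Kcne4* and *Higd1b* were at 3.88 or below in all 6 of these libraries. Library kit and population cannot be told apart in these comparisons with neural cells.

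Mural markers were present beside these endothelial values. In Ec-340, Ec-343 and Ec-346 the 8 mural markers summed to 12469, 7583 and 9877 normalized counts, of which *Rgs5* made up 6872, 3469 and 5212. *Pdgfrb*, the gene of the sort marker, was at 0 to 16.6 and *Vtn*, a pericyte marker, at 88.6 to 135 in these libraries. *Kcnj8*, at 0, 1.42 and 451, did not follow the order of the marker sums. The part of mural RNA in the endothelial values was not tested in bulk, and the single wells below give the values per cell.

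Relatives of the members were followed through lists of their families. Of the inward rectifiers (12 relatives, 8 tested), *Kcnj12* passed as higher in mural cells (132, 24.0 and 241 normalized counts, log2 difference 4.42) and *Kcnj14* and *Kcnj2* as lower (-4.04 and -3.64). *Kcnj3*, *Kcnj5* and *Kcnj9* were at 0 in all mural libraries, and *Kcnj15* (0 to 122 in mural libraries) was not called. *Kcnj10*, the main astroglial inward rectifier, was at 8639 normalized counts in Mu-343 and at 25.4 or below in the other 2 mural libraries, against 525 to 658 in neural libraries. *Kcnj4*, *Kcnj6*, *Kcnj13* and *Kcnj16* were too low to be tested. The median log2 difference of the list was -2.51, and 0 members of the list passed as lower without the brain of Mu-340 or without that of Mu-346.

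Of the 2 KATP relatives, *Kcnj11* was lower in mural cells than in the mean of the other populations (-3.41, limma adjusted p = 0.00289), and *Abcc8* did not pass (0.48, limma adjusted p = 0.787). The call for *Kcnj11* was lost without the brain of Mu-340, without that of Mu-343 and in edgeR on the recovered reads (0 of 2 lower). Of 8 other ABCC transporters 0 were higher and 2 lower, *Abcc3* (-4.82) and *Abcc4* (-4.62), with a list median of -1.68, and 1 was lower with any of the 3 brains left out. *Abcc1*, *Abcc2*, *Abcc5*, *Abcc6*, *Abcc10* and *Abcc12* were not called. The background for genes lower in mural cells was 5.15%.

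Relatives of *Kcne4* and *Kcng1* were followed in the same way. Of 13 KCNE and silent Kv relatives, 7 could be tested, 0 were higher and 2 were lower, *Kcng2* (-3.85) and *Kcne3* (-3.43), both found mainly in endothelial cells, and 1 of the 2 remained lower without the brain of Mu-340. *Kcne3* was at 578 to 2330 normalized counts in endothelial libraries and at 0 in all others. *Kcne1l* (2.28 to 165 in mural libraries) was not called, and *Kcne1*, *Kcne2*, *Kcng3* and *Kcng4* were at 0 in all mural libraries. Among pore-forming channel genes on which such subunits can act, *Kcna3* (-4.97), *Kcnma1* (-4.88) and *Kcnq1* (-4.49) were lower in mural cells, against a background of 5.15%. These are examples from a list of 8 whose other genes are not reported here, so no share is read from them.

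Among relatives of the mitochondrial members 1 gene was called. *Cox4i2*, an isoform of the cytochrome oxidase subunit *Cox4i1* that takes part in oxygen sensing, was at 4128, 4399 and 4322 normalized counts in mural libraries and at 108 or below in all others (log2 difference 7.24, limma adjusted p = 2.14e-06). Among 9 tested relatives the median was 0.97. *Ndufa4* (0.26), *Higd1a* (0.76) and *Cox7a1* (2.67), another tissue-restricted isoform, were not called, and *Cox6a2* was too low to be tested. Per kilobase, *Ndufa4l2* was 9.65-fold ± 0.664 above *Ndufa4* in mural cells, whereas the mean ratio was 0.0810 in endothelial, 0.00494 in microglial and 0.00791 in neural cells. *Higd1b* was 14.6-fold ± 3.46 above *Higd1a* in mural cells, and *Cox4i2* reached 0.491 ± 0.0139 of *Cox4i1* (SD, n = 3). *Higd1c* was listed at 0 in all 12 libraries.

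A list of hypoxia response genes was set beside *Ndufa4l2*. Of 18 genes 1 was higher, close to the background of 4.99%, *Epas1*, the HIF-2α gene (log2 difference 5.54, limma adjusted p = 2.77e-05), and 0 were lower, with a median of -0.02. *Epas1* was at 10469, 7679 and 12677 normalized counts in mural libraries and at 8241, 19680 and 10692 in endothelial libraries, so these 2 populations overlapped. *Vegfa*, *Egln3*, *Ldha* and *Hif1a* did not pass. Of the P5-type ATPases, *Atp13a4* was called higher (190, 0 and 102 in mural libraries, log2 difference 3.48, limma adjusted p = 0.0428), and *Atp13a1*, *Atp13a2* and *Atp13a3* were not called, with differences of -1.43, -2.71 and -0.62. The call for *Atp13a4* was lost without the brain of Mu-340 and without that of Mu-346.

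Mural genes outside the set were followed in the same contrast. Of 25 mural identity genes 23 were higher in mural cells and 0 lower (median 8.80), led by *Ednra* (12.59), the endothelin receptor of vessel walls, *Vtn* (11.39), *Rgs5* (10.61) and *P2ry14* (10.46). Of 11 contractile genes tested, 6 were higher, among them *Kcnmb1* (8.63), *Myl9* (7.94), *Mylk* (6.72) and *Acta2* (6.63), whereas the smooth muscle genes *Myh11*, *Tagln* and *Cnn1* were not called. *Kcnmb1* encodes an accessory subunit of the channel whose pore is *Kcnma1*, and *Kcnma1* was at 0 in all mural libraries. Of 9 fibroblast genes tested, 7 were higher, including *Col3a1* (9.71), *Col1a2* (9.45), *Col1a1* (6.91) and *Dcn* (4.86). The fibroblast marker *Pdgfra* was lower (-3.42, a call lost without the brain of Mu-340 or of Mu-343) and *Dpt* was listed at 0 throughout. The sum of the fibroblast list was 14876 to 20227 normalized counts in mural libraries, and its part in the levels of the members was not tested. Of the marker lists, 8 of 8 mural markers were higher, 1 of 8 endothelial markers (*Tek*) was higher and 2 lower, 7 of 8 microglial markers were lower, 1 of 8 neural markers (*Fabp7*) was higher, and 5 of 7 erythroid markers were lower.

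Over the 12 libraries, and so mainly over the step from mural to other cells, the genes most like *Kcnj8*, members left out, by Pearson correlation of log2(normalized count + 1) were *Dhx58os* (r = 0.99), *Gm16342* (0.98), *Mmp9* (0.97), *Gm13474* (0.97) and *Slc6a20a* (0.97). Those most like *Abcc9* were *A4galt* (0.98), *Acat1* (0.96), *Gm47547* (0.96), *Cfap20* (0.96) and *Fam162b* (0.96). *Mmp9*, a matrix-degrading protease, was at a mean of 44558 ± 15354 normalized counts (SD, n = 3) in mural libraries. The lists of 5 did not share a gene. Their correlations lay close together (0.97 to 0.99 for *Kcnj8* and 0.96 to 0.98 for *Abcc9*), and no background was computed for shared genes. Whether the channel genes differ in the genes most like them was therefore not tested. *Kcnj8* and *Abcc9* correlated at 0.92 with each other, *Kcnj8* and *Higd1b* at 0.99, *Atp13a5* and *Kcne4* at 0.99, and *Kcng1* at 0.24 to 0.51 with the other members. Members were chosen by their mural levels in these libraries, so high correlations among them follow from that choice and are no test.

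Single wells gave the same genes per cell. Above 1500 transcripts there were 210 wells of the mural gate (95, 105 and 10 on plates 1, 2 and 3), 225 of the endothelial, 128 of the microglial and 123 of the neural gate, with medians of 6885, 6408, 10761 and 7717 transcripts. In edgeR on the sums per plate and gate, 2.96% of 9281 genes passed as more than 10-fold higher in the mural gate and 0.711% as lower. Of the 7 members 5 entered that fit, through the gate in which they are high, and lay among the higher genes, which the choice of the members fixed and which is no test. *Atp13a5*, *Kcng1* and the relatives *Kcnj11* and *Abcc8* did not pass the filter. Of the lists, 19 of 19 mural identity genes tested were higher, as were 5 of 5 fibroblast genes, 2 of 3 contractile genes (*Myl9* and *Mylk*) and 1 of 15 hypoxia genes (*Epas1*), and 1 of 3 ABCC transporters (*Abcc4*) was lower.

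*Abcc9* was the member found in most mural-gate wells, in 194 of 210 (92.4%, exact 95% interval 87.9% to 95.6%), at 1123, 1384 and 1264 CPM (transcripts of the gene scaled to the summed transcripts of the wells) on plates 1, 2 and 3. *Kcnj8* was found in 181 (86.2%, 80.8% to 90.6%), at 523, 669 and 481 CPM. The order of the channel genes is the reverse of that per kilobase in bulk, with 3′ end counts in place of full-length reads, and it was the same on each of the 3 plates.

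*Ndufa4l2* was found in 159 mural-gate wells (75.7%, 69.3% to 81.4%), at 355, 396 and 192 CPM. *Higd1b* was found in 87 wells (41.4%, 34.7% to 48.4%), at 114, 129 and 13.7 CPM, and *Kcne4* in 54 (25.7%, 19.95% to 32.2%), at 53.8, 52.0 and 27.5 CPM. *Atp13a5* was found in 29 wells (13.8%, 9.45% to 19.2%), at 15.8, 41.4 and 82.4 CPM, and *Kcng1* in 20 (9.52%, 5.91% to 14.3%), at 15.8, 14.2 and 0 CPM. Plate 3 rests on 10 wells. All intervals and floors cover counting error only.

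Shares differed with depth. In the 70 shallowest mural-gate wells (1584 to 5519 transcripts) *Kcnj8* was found in 74.3%, in the middle 70 in 92.9% and in the 70 deepest (8515 to 19502 transcripts) in 91.4%. *Kcne4* was found in 7, 19 and 28 of these 70 wells, and *Kcng1* in 4.29%, 5.71% and 18.6%. *Higd1b* was found in 34.3%, 47.1% and 42.9% and *Atp13a5* in 8.57%, 21.4% and 11.4%, both lower in the deepest than in the middle wells. Thinned to 1500 transcripts per well, the shares in the mural gate were 78.3% for *Abcc9*, 54.5% for *Kcnj8*, 37.9% for *Ndufa4l2*, 15.5% for *Higd1b*, 6.91% for *Kcne4*, 4.46% for *Atp13a5* and 1.97% for *Kcng1*.

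In the other gates most members were rare. In the endothelial gate *Abcc9* was found in 16 of 225 wells and *Kcnj8* in 8, in microglia *Abcc9* in 14 of 128 and *Kcnj8* in 1, and in the neural gate *Abcc9* in 8 of 123 and *Kcnj8* in 3. *Higd1b* was found in 8 endothelial, 0 microglial and 1 neural well. *Ndufa4l2* was found in 6 of 225 endothelial (2.67%), 8 of 128 microglial (6.25%) and 5 of 123 neural wells (4.07%), and on plates 1, 2 and 3 it was at 8.34, 0 and 71.3 CPM in the endothelial, 7.40, 4.66 and 0 in the microglial and 8.86, 2.37 and 0 in the neural gate. Its higher level in endothelial cells in bulk was thus not seen on every plate of the single wells. *Atp13a5* and *Kcne4* were found in 2 wells or fewer of each of these gates. *Kcng1* was found in 5 neural wells (4.07%, 1.33% to 9.23%), at 7.25 CPM, and in 0 of 225 endothelial wells, which by 3 counts allows a share of wells with a transcript of up to 1.33%. On plates 1, 2 and 3 *Kcng1* was at 8.86, 4.74 and 10.95 CPM in the neural gate, against 15.8, 14.2 and 0 in the mural gate, so the plates did not share an order of these gates, and the difference was not tested.

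Within the endothelial gate the member transcripts sat in a few wells. Of the 225 wells, 7 (3.11%) held 2 or more members and 107 of the 125 member transcripts (85.6%). In these 7 wells mural markers summed to 10555 CPM and endothelial markers to 3174 CPM, *Rgs5* was found in 7 and *Cldn5*, a tight junction gene of endothelium, in 3. In the 201 endothelial-gate wells without any member, mural markers summed to 291 CPM and endothelial markers to 7370 CPM.

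**Figure D3:**
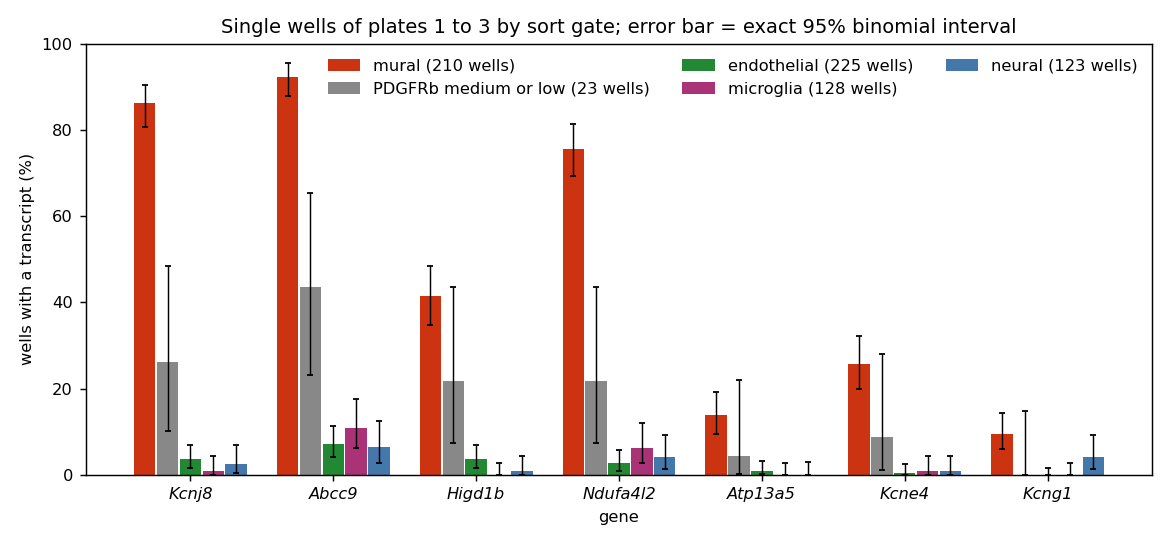
Share of wells with at least 1 transcript of each member (percent, with exact 95% binomial intervals) by sort gate on plates 1 to 3. In the mural gate the share falls from 92.4% for *Abcc9* to 9.52% for *Kcng1*. The endothelial, microglial and neural gates stay low for all 7 members. A gate of medium or low PDGFRβ is drawn too, in which 9 of 23 wells held 2 or more members.

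Most mural-gate wells held several members. Of the 210 wells, 12 held none, 9 held 1, 21 held 2, 58 held 3, 62 held 4, 38 held 5, 9 held 6 and 1 held all 7. The 12 wells without a member had mural markers at 381 CPM and neural markers at 6894 CPM, whereas the 189 wells (90.0%) with 2 or more had mural markers at 11902 CPM. Mural markers held more transcripts than each other marker list in 194 of 210 wells (92.4%), called wells led by mural markers. Of the 16 remaining wells, 15 had more neural than mural marker transcripts, 11 had no member, and together they held 8 member transcripts.

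The channel genes were mostly found together. Both were present in 178 mural-gate wells, *Abcc9* alone in 16, *Kcnj8* alone in 3 and neither in 13. *Abcc9* was found in 98.3% (95.2% to 99.7%) of wells with *Kcnj8* and in 55.2% (35.7% to 73.6%) of wells without it. Wells with *Kcnj8* were deeper, with a median of 7102 against 4292 transcripts. Thinned to 1500 transcripts, the shares were 84.6% and 70.7%. Among the 194 wells led by mural markers they were 98.9% and 92.9% unthinned, and 84.8% and 82.2% thinned. The shares without *Kcnj8* rest there on 14 wells.

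Other pairs were counted in the same way. Over the 3 plates together, the share with the second gene was higher in wells with the first than without it for 21 of 21 pairs of members, before and after thinning. On plate 1 alone it was higher for 20 of 21 pairs, and the exception was *Kcne4* given *Atp13a5* (14.3% with and 22.7% without). On plate 2 alone it was higher for 19 of 21, and the exceptions were *Kcne4* and *Kcng1* given *Higd1b* (26.5% with and 32.1% without, and 8.16% and 10.7%), which also turned with plate 1 left out. Within the wells of the 3 plates led by mural markers it was higher for 21 of 21 pairs before and 19 of 21 after thinning. *Ndufa4l2* was found in 80.9% of wells with *Abcc9* and 12.5% of wells without it, and in 42.2% and 33.8% after thinning in wells led by mural markers. *Ndufa4l2* given *Kcnj8* was 1 of the 2 pairs that turned there, at 40.4% with and 41.4% without after thinning in those wells. *Atp13a5*, *Kcne4* and *Kcng1* were each found in 0 of the 16 wells without *Abcc9* (by 3 counts, a share of up to 18.8%), and 3 of these wells were led by mural markers. Wells are not replicates, and these shares are a description of 3 plates.

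Plate 4 of the *Mof* knockout series held most of its wells led by mural markers. The targeted gene, *Kat8* (the current symbol of *Mof*, a histone H4 acetyltransferase), was at 12.7 CPM on plate 4 (exact 95% Poisson interval 8.90 to 17.6, 36 transcripts in 33 of 337 wells), 10.4 on plate 5 and 11.2 on plate 6, against 15.8, 18.9 and 0 CPM in the mural gate of plates 1 to 3. The counts come from the 3′ end and the deleted part of the gene is not given in the sources used here, so *Kat8* does not check the label. No gate was recorded, and 275 of the 337 wells above 1500 transcripts (81.6%) were led by mural markers, against 1 of 195 wells on plate 5 and 9 of 350 on plate 6. With 1 such plate there is no replicate check, and the values of its 4 libraries are set beside the 3 plates of the mural gate without a test.

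*Kcnj8* was at 503 CPM on plate 4 (477 to 529), with 554, 528, 468 and 460 in libraries 1 to 4. This lay within the range of 481 to 669 of the mural gate. *Abcc9* was at 874 CPM (840 to 909), with 989, 813, 859 and 846 in the libraries, each below all 3 mural-gate plates (1123 to 1384) and 0.70 of their mean. In wells led by mural markers it was at 1098 CPM, close below the lowest mural-gate plate (1123), whose wells were not selected in that way.

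*Ndufa4l2* was at 396 CPM (374 to 420), with 440, 386, 387 and 374 in the libraries, near the highest mural-gate plate. *Higd1b* was at 78.4 CPM, with 102, 75.5, 60.7 and 78.3, and *Atp13a5* at 26.8 CPM, with 15.1, 39.0, 24.5 and 27.2, both within the range of the mural gate. *Kcne4* was at 26.5 CPM (20.8 to 33.2), with 33.1, 26.0, 28.4 and 17.6, near the lowest mural-gate plate (27.5). *Kcng1* was at 16.9 CPM (12.5 to 22.5), with 22.6, 18.2 and 23.3 in libraries 1 to 3 but 1.60 in library 4. Over all wells of the plate, 6 of 7 members lay within the range of the mural gate or their interval reached it, and *Abcc9* lay below it. In wells led by mural markers *Ndufa4l2* was at 498 CPM and *Kcng1* at 21.4, above all 3 mural-gate plates. There *Abcc9* lay just below these plates, and the other 4 members lay within their range. The mural-gate plates kept all their wells in this comparison, also those not led by mural markers.

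The cell makeup of plate 4 differed from that of the mural gate. Mural markers summed to 9376 CPM on plate 4 and to 11087 in the mural gate, neural markers to 2001 and 952, contractile genes to 1572 and 1453, and fibroblast genes to 955 and 998. *Acta2*, the smooth muscle actin, was at 121 CPM on plate 4 against 14.2, 5.91 and 0 in the mural gate. The part of these differences in the level of *Abcc9* was not tested, beyond its value of 1098 CPM in wells led by mural markers. Genotype, plate, sort and run cannot be told apart here.

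Shares and co-detection on plate 4 followed the order of the mural gate. *Abcc9* was found in 83.7% of wells, *Kcnj8* in 76.6%, *Ndufa4l2* in 74.8%, *Higd1b* in 31.8%, *Kcne4* in 17.5%, *Atp13a5* in 11.3% and *Kcng1* in 9.50%. Both channel genes were found in 247 wells, with *Abcc9* in 95.7% of wells with *Kcnj8* and 44.3% of wells without it. In wells led by mural markers these shares were 97.2% and 78.3%, and after thinning 78.6% and 72.5%. On plates 5 and 6 *Kcnj8* was at 1.16 and 14.6 CPM and *Abcc9* at 9.82 and 37.6 CPM.

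**Figure D4:**
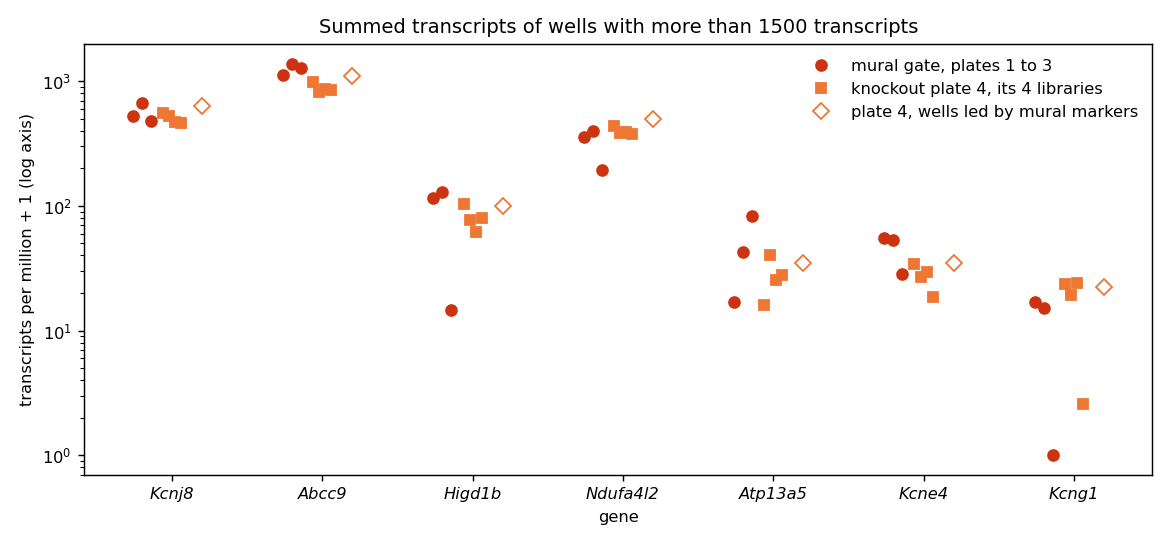
CPM of the 7 members (log scale) in the 4 libraries of knockout plate 4 and in the mural gate of plates 1 to 3; each point is 1 library or plate. *Abcc9* is the member whose 4 plate 4 libraries (813 to 989) all lie below the mural-gate plates (1123 to 1384).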

How the data were processed

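Bulk libraries of 4 sorted populations from 3 brains and single wells of 6 plates were analysed. Bulk values were deposited as normalized counts, a linear signal. Dividing them by the smallest step of their library gave back whole reads (100% of 123944 low values, within 0.01), from which the depths were summed. For single wells the authors deposited expected counts of transcripts, corrected for random identifiers (4096) drawn more than once. The submitters' processing notes name BWA 0.6.2-r126, STAR, featureCounts, DESeq2 and mm10, with no role given.

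The members and the lists of relatives and markers were chosen with earlier results of these data known. Bulk populations were compared with limma 3.58.1 (R 4.3.3) with its trend option after log2 transformation of the normalized count plus 1, for genes with a mean of at least 10, two-sided, with p adjusted by Benjamini-Hochberg and called under 0.05. Mural cells were set against the mean of the other populations, and there a call also needed 10-fold. Wells with more than 1500 transcripts were kept, doublets were not called, and sums per plate and gate, rounded to whole counts, were compared with edgeR 4.0.16 (quasi-likelihood, TMM, its own filter). Shares carry exact binomial and CPM exact Poisson 95% intervals, and a share of 0 the limit that 3 counts allow. Thinning to 1500 transcripts was computed exactly. A well was led by the marker list holding most transcripts. Named beside the members are their paralogues, up to 4 called genes per list and direction, and the 5 genes most correlated with each channel gene. Alternatives were another pseudocount, filter, scaling and transcript minimum, no fold threshold, a block, edgeR on recovered reads, DESeq2 1.42.0, and leaving out each brain, plate or library. Scripts were tested on simulated data. Python 3.11.15, numpy 2.4.6, pandas 2.3.3, scipy 1.17.1 and matplotlib 3.10.9 were used.

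Equal numbers in library names were read as the same brain, which pairs these libraries. Their residuals correlated at -0.054 to 0.0801 over 18 pairs, against -0.0661 to 0.0509 for 36 pairs with other numbers. The reported fits had no block. Some members of the list of channel partners are not reported here.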

Additional observations from a re-analysis of the deposited data

Results flagged for a closer look

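Members appeared in material that no comparison above used. In 23 wells of a gate of medium or low PDGFRβ, above 1500 transcripts, *Kcnj8* was at 146 CPM, *Abcc9* at 293, *Higd1b* at 67.1 and *Ndufa4l2* at 54.9. Of these wells, 9 held 2 or more members and 94.7% of the 95 member transcripts, with mural markers at 8042 CPM. The 12 wells without a member had neural markers at 13849 CPM.

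At 1056 barcodes not assigned to a sorted well (median 95.02 transcripts), 18 transcripts of *Kcnj8*, 37 of *Abcc9* and 7 of *Ndufa4l2* were counted. Their source was not tested.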

How the results depend on the processing

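Of 168 recomputed comparisons of a member between non-mural populations, 163 kept their side of the threshold and 5 newly passed, those of *Abcc9* against microglia and of *Kcnj8*, *Abcc9* and *Higd1b* against neural cells given above. No called difference changed direction. The replicate block, with the brain as a term, gave 979 genes higher and 1007 lower in mural cells, and it changed no call of a member.

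For mural cells, 3821 genes were higher and 4485 lower with no fold threshold, and 492 and 298 with a pseudocount of 10. edgeR on the recovered reads, chosen after seeing the data, gave 1281 higher and 763 lower, against 987 and 1017. In single-cell sums 480 genes were higher without a filter on low counts, and leaving out a plate gave 214 to 349 higher and 37 to 64 lower.

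Shares of mural-gate wells after thinning were 54.5% for *Kcnj8*, 78.3% for *Abcc9*, 15.5% for *Higd1b*, 37.9% for *Ndufa4l2*, 4.46% for *Atp13a5*, 6.91% for *Kcne4* and 1.97% for *Kcng1*, and that of *Abcc9* in wells with *Kcnj8* was 84.6%. Above 3000 transcripts *Kcnj8* was found in 91.4% and *Ndufa4l2* in 82.7%. In wells led by mural markers, a choice made after seeing the data, *Kcnj8* was found in 92.8% and *Abcc9* in 98.5%. Leaving out a plate gave 77.1% to 93.9% for *Kcnj8*, 88.6% to 95.7% for *Abcc9*, 67.6% to 80.9% for *Ndufa4l2* and 7.62% to 19.1% for *Atp13a5*.

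On plate 4, wells led by mural markers gave 633 CPM for *Kcnj8*, 1098 for *Abcc9*, 99.2 for *Higd1b*, 498 for *Ndufa4l2* and 33.5 for *Kcne4*. Leaving out a library gave 839 to 897 CPM for *Abcc9*.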
